A study of Homo sapiens with 7 samples.

Results

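Translation initiation factors load the small ribosomal subunit with the initiator tRNA, bring it to the capped 5′ end of an mRNA and release it once the start codon is found. In eukaryotes, eIF1 and eIF1A keep the subunit open for scanning, eIF2 carries the initiator tRNA and is recharged by eIF2B, and eIF3 is the large scaffold that holds these parts together. The cap is read by eIF4F, made of the cap-binding protein eIF4E, the helicase eIF4A and the scaffold eIF4G, while the 4E-BPs compete with eIF4G for eIF4E. A deadenylase shortens the poly(A) tail of mRNAs, and the tail in turn meets eIF4G through the poly(A)-binding protein, so the mRNAs of the initiation machinery were read on each array of a deadenylase silencing experiment.

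The genes were those with a symbol from EIF1 to EIF6, without the eIF2 kinases, argonautes under their old names, antisense genes and pseudogenes, and each was represented by its brightest probe. By this rule there were 49 genes of 19062 named on the array. The level of 1 of them, the Y-linked EIF1AY, is not given here. Of the other 48, 47 were well above background on all 7 arrays and are the genes counted below. EIF4E1B, a germline relative of EIF4E, was well above background on 1 array and was not tested. Probes named as EIF2S3, EIF2S3B or EIF4EBP3 were not found, so the γ subunit of eIF2 and the 4E-BP3 were not analysed here.

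Total RNA came from NCI-H520, an established human squamous cell lung carcinoma line, and was hybridised to single-colour Agilent arrays. Every culture was transfected with 6 µg of a pLKO.1 plasmid, selected with puromycin at 6 µg/mL from 12 h and harvested at 72 h. The plasmid was an empty vector, a non-target shRNA, or an shRNA against PARN, CNOT6, CNOT6L, CNOT7 or NOC (nocturnin, gene NOCT). There was 1 array per group, so a single shRNA has no replicate check. Per the labels the CNOT6L shRNA has the target accession of nocturnin, which leaves its sequence uncertain, and untransfected cells were not analysed here.

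All arrays lay on 1 slide. The image of the NOC shRNA array was extracted on another day than the images of the other arrays. Row 1 held both controls with the PARN and CNOT6 shRNA arrays, and row 2 held the CNOT6L, CNOT7 and NOC shRNA arrays without a control. For the latter, slide row and silencing cannot be told apart. The 75th percentile of signal, by which each array was scaled, ran from 1360 on the CNOT6 shRNA array to 3239 within row 1 and from 3157 to 3939 in row 2, and 82.0% to 91.5% of probes were above background. Against the mean of both controls, the targeted mRNA was at 45.7% for PARN, 89.5% for CNOT6, 63.0% for CNOT6L, 54.5% for CNOT7 and 74.8% for NOCT, and each of these mRNAs had its minimum over the 7 arrays where its own shRNA was given. NOCT differed by -0.62 log2 from the empty vector but by -0.21 from non-target, less than the 0.41 between the controls. CNOT6 differed by -0.21 and -0.11, with the controls 0.095 apart. Of the markers for the line, 5 of 5 epithelial and 5 of 9 squamous genes were above background on all arrays, and 1 squamous marker, DSG3, on none, as were the fibroblast markers COL3A1 and LUM. TP63 was above background on 2 arrays and KRT14 on 1. The squamous list had a summed signal of 24.7 to 44.3 times the 75th percentile, most of it SOX2 at 4.60 to 5.46 log2. KRT17, DSC3 and PKP1, though above background, were at -5.32 or below on every array. Fibroblast markers (3 of 5 above background on all arrays), immune markers (5 of 5) and endothelial markers (4 of 4) had summed signals of 0.166 to 0.207, 8.60 to 15.9 and 0.128 to 0.246 times the 75th percentile, against 168 to 234 for the epithelial list. Most of the immune sum was CD14, at 2.92 to 3.85 log2, while CD79A was at -0.20 to 0.22 and PTPRC, CD3E and CD68 were at -2.14 or below on every array.

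Sequences at the annotated start sites are shown because many mRNAs of the translation machinery begin with a C followed by an unbroken pyrimidine run, the feature known as a 5′ terminal oligopyrimidine motif. RefSeq promoter windows of build GRCh38.p14 were matched for 40 of the genes. In the lines below, 70 bases precede the start site and 30 bases follow from it, and capitals mark a run of C or T that begins with C, has at least 5 bases and starts within 3 bases of the annotated start. The first 4 belong to genes whose signals on all row 2 arrays were above those on all row 1 arrays. EIF3D is an eIF3 subunit above both controls with each shRNA, and EIF1 lay below and has no such run. The lines are a selection. Not shown are EIF4G3, which was above in row 2 without a run, and genes with a run whose rows overlapped, such as EIF3J, EIF3M, EIF4A2 and EIF4B. The lines shown are EIF3F at chr11:7987267-7987366 (plus strand), EIF3K at chr19:38619118-38619217 (plus), EIF2A at chr3:150546717-150546816 (plus), EIF4EBP2 at chr10:70404075-70404174 (plus), EIF3D at chr22:36529137-36529236 (minus) and EIF1 at chr17:41688815-41688914 (plus).
EIF3F: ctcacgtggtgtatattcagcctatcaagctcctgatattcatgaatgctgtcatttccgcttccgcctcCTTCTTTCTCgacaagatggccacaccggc
EIF3K: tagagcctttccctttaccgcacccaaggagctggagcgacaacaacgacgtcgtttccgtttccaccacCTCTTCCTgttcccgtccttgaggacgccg
EIF2A: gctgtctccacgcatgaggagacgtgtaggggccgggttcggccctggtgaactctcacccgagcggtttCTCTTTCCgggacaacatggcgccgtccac
EIF4EBP2: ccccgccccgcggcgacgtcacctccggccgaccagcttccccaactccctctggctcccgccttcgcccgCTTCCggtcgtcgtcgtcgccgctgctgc
EIF3D: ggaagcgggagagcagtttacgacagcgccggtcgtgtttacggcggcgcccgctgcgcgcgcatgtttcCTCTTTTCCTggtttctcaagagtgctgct
EIF1: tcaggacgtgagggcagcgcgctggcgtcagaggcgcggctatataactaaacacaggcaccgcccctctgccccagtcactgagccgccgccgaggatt

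Such a pyrimidine start was found in 13 of the 40 genes (32.5%), and in 16.0% of all 27305 genes of the promoter table. The E-box CACGTG, which reads the same on both strands and is bound by MYC and related factors, occurred in the full 300-base window of 10 of the 40 genes (25%) and of 8.77% of all genes. A match to these letters is a description of the window and not a site of action. How the genes with and without the pyrimidine start were placed on the arrays is given with the slide rows below.

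The first question was how far silencing of each deadenylase changed the initiation factor mRNAs relative to both controls. Among the 47 genes the widest ranges over the 7 arrays were 1.13 log2 for EIF1 and 1.07 for EIF5AL1. With each of the 5 shRNAs, 0 of 47 genes were 2-fold higher than both controls or 2-fold lower than both, and at 1.5-fold the count was again 0 of 47. Among all named genes tested, the 2-fold rule gave 0.527% for PARN, 0.505% for CNOT6, 0.92% for CNOT6L, 1.0% for CNOT7 and 1.43% for NOC shRNA, so a count of 0 among 47 at 2-fold lay near the background. The 1.5-fold rule gave 1.88%, 3.52%, 4.5%, 4.57% and 5.34% of all genes in the same order. Among genes whose mean was above the 75th percentile of the array, as it was for 42 of the 47, the 1.5-fold rule gave 0.453%, 1.06%, 2.2%, 1.78% and 2.11%. Beside these bright genes, a count of 0 among 47 at 1.5-fold also lay near the background. With 1 array a group these are descriptions and not tests. In a bulk sample, fewer cells with an mRNA and less of it per cell cannot be told apart.

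The controls were compared with each other by the same rules. Between the empty vector and non-target arrays, 0 of 47 genes differed 2-fold and 0 differed 1.5-fold, where 11.4% and 22.9% of all genes did, and 4.72% of the bright genes did at 1.5-fold. The largest gaps were those of EIF4E3, at -0.57 log2 for empty vector minus non-target, and of EIF5, at 0.51. The median absolute difference between the controls was 0.13 log2 for the initiation factors and 0.24 for all 16482 genes above background on every array. For the bright genes it was 0.16. Over the 7 arrays, the median SD was 0.15 log2 for the initiation factors, 0.23 for all genes and 0.17 for the bright genes.

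**Figure D1:**
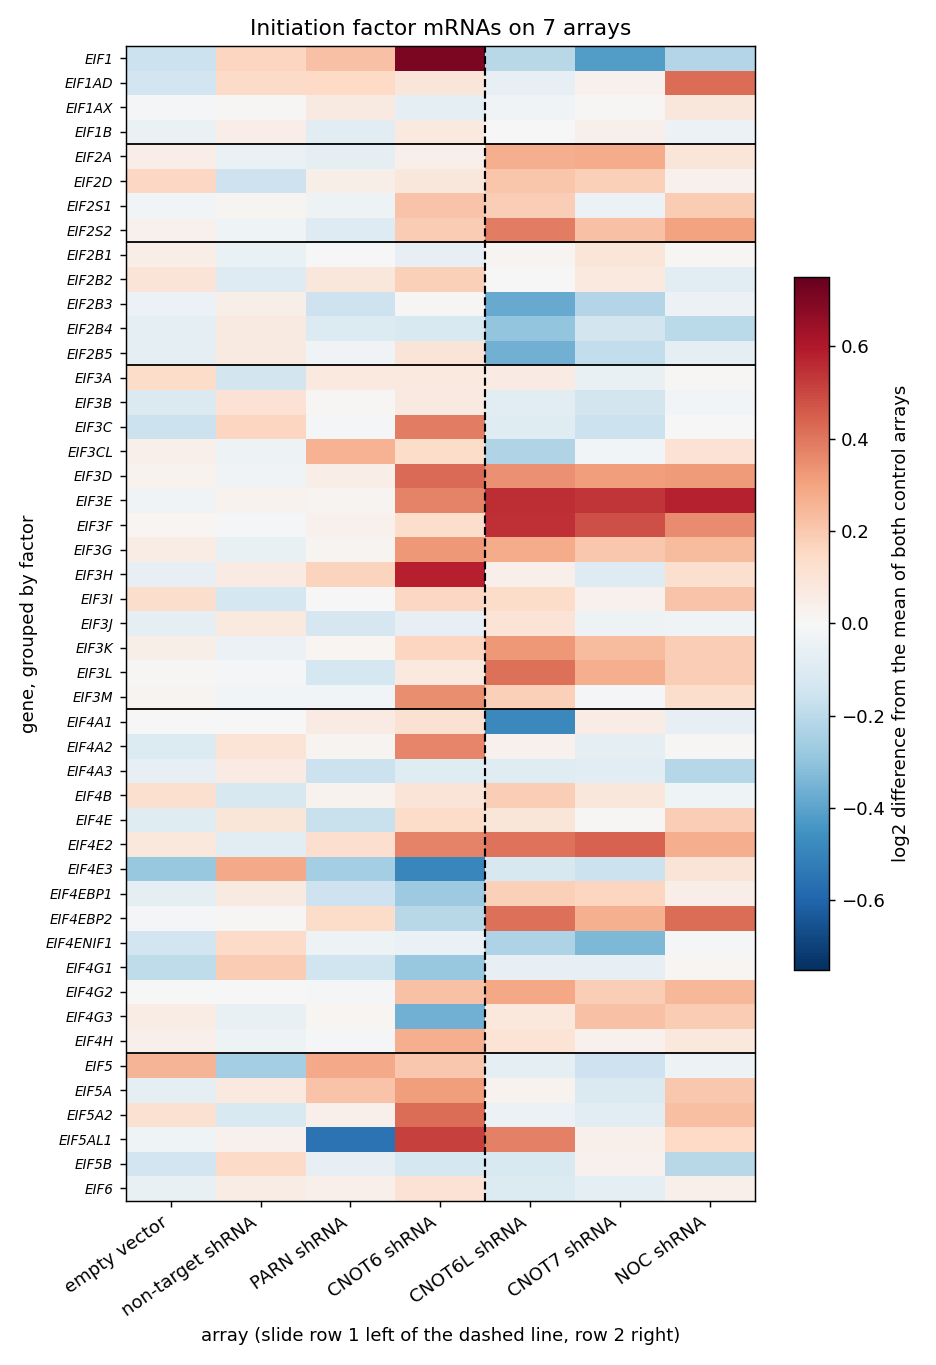
Log2 difference of 47 initiation factor mRNAs (rows, grouped by factor) from the mean of both control arrays on each of the 7 arrays (columns); the dashed line divides slide row 1 from row 2. EIF1 is highest on the CNOT6 shRNA array, the dimmest of the slide, at 0.71, and EIF3E and EIF3F are raised across row 2.

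As a group the genes lay slightly above the control mean with CNOT6, CNOT6L, CNOT7 and NOC shRNA at the main scaling. With PARN shRNA they were about level with it. The sign for PARN, CNOT6 and CNOT7 shRNA turned under other processing, and that for PARN shRNA also against either control alone. The median difference from the control mean was 0.011 log2 for PARN, 0.11 for CNOT6, 0.036 for CNOT6L, 0.029 for CNOT7 and 0.084 for NOC shRNA, where the median over all genes was -0.017, 0.032, -0.0015, -0.016 and -0.015. Above both controls were 12 of 47 genes with PARN shRNA, 27 with CNOT6, 21 with CNOT6L, 17 with CNOT7 and 24 with NOC shRNA. These made up 25.5%, 57.4%, 44.7%, 36.2% and 51.1% of the genes, against 23.1%, 35.4%, 32.7%, 31.9% and 32.4% of all genes. Below both controls were 14, 9, 10, 11 and 7 genes in the same order. That was 29.8%, 19.1%, 21.3%, 23.4% and 14.9%, against 32.1%, 29.6%, 33.5%, 34.4% and 35.2% of all genes. Such shares were not counted for the bright genes. For the mean of the row 2 arrays minus the controls, the median was 0.039 log2 for the initiation factors. It was 0.049 for the bright genes and -0.011 for all genes, so genes of like brightness rose about as much in row 2. The 5 comparisons share both control arrays. With quantile normalization the median of CNOT6 shRNA was 0.024, and without scaling it was -0.89, this array having the lowest 75th percentile of the slide. The part of array brightness in these medians was not tested. With normexp background correction the median was -0.0057 for PARN and -0.014 for CNOT7 shRNA, and for PARN shRNA it was -0.012 against the empty vector alone and -0.0011 against the non-target array alone. With a single control the CNOT6L shRNA median was 0.070 or 0.074, and quantile normalization lowered those of CNOT6L, CNOT7 and NOC shRNA to 0.0081, 0.00084 and 0.032.

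**Figure D2:**
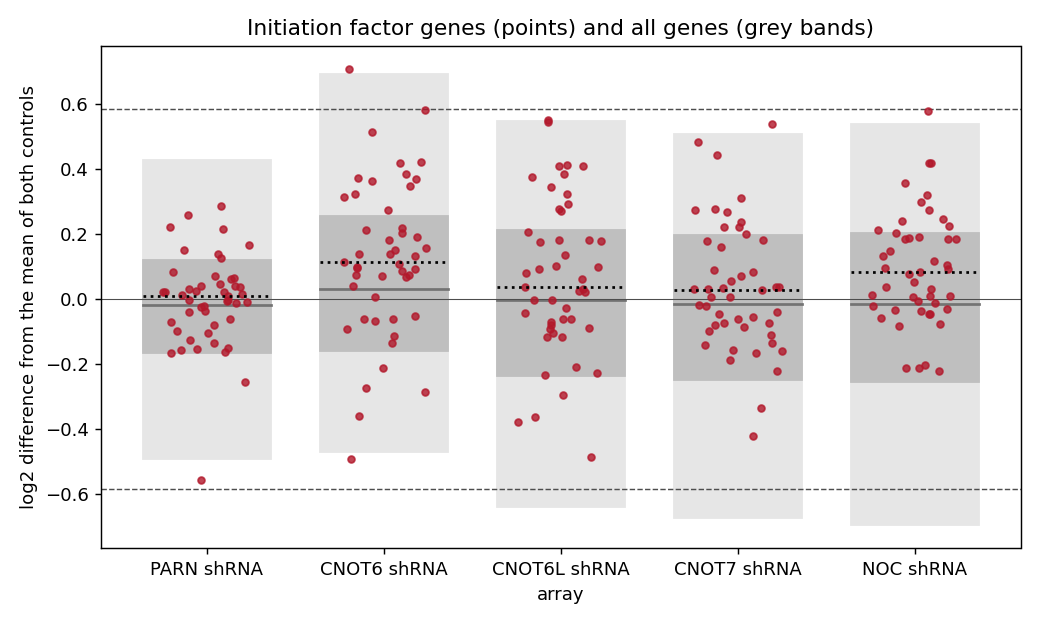
Points are the 47 initiation factor mRNAs on each shRNA array (x axis) by log2 difference from the mean of both controls (y axis), with their median dotted; grey bands span the central 50% and 90% of all 16482 genes, with the median as a grey line, and dashed lines mark 1.5-fold. The point past a dashed line, EIF1 with CNOT6 shRNA at 0.71, was within 1.5-fold of the non-target array.

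The subunits of eIF3, the scaffold of the scanning complex, were counted next. Of 14 eIF3 genes, 11 lay above both controls with CNOT6 shRNA, 10 with NOC, 9 with CNOT6L, 6 with CNOT7 and 4 with PARN shRNA, where 35.4%, 32.4%, 32.7%, 31.9% and 23.1% of all genes did. Their median differences from the control mean were 0.16 log2 for CNOT6, 0.16 for CNOT6L, 0.16 for NOC, 0.0062 for CNOT7 and 0.018 for PARN shRNA. None was 1.5-fold from both controls, as stated for all the genes.

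EIF3E encodes the eIF3 subunit also known as INT6. Its scaled signals were 5.02 on the empty vector array, 5.07 on non-target, 5.06 on PARN shRNA, 5.42 on CNOT6 shRNA, 5.60 on CNOT6L shRNA, 5.58 on CNOT7 shRNA and 5.62 on NOC shRNA, in log2 units above the 75th percentile of each array. Row 2 thus did not overlap row 1, the CNOT6 shRNA array lay in between, and the PARN shRNA array was between the controls. The smaller of its differences from the 2 controls was 0.55 log2 with NOC, 0.52 with CNOT6L, 0.51 with CNOT7 and 0.35 with CNOT6 shRNA, so EIF3E came just short of 1.5-fold on the row 2 arrays. Under quantile normalization it passed 1.5-fold with CNOT7 shRNA, and with NOC shRNA under normexp background correction or without the non-target array.

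EIF3F encodes an eIF3 subunit with an MPN domain, as does EIF3H. EIF3F read 2.50 on the empty vector array, 2.47 on non-target, 2.52 with PARN, 2.62 with CNOT6, 3.03 with CNOT6L, 2.97 with CNOT7 and 2.84 with NOC shRNA. Again all 3 row 2 arrays stood above all 4 row 1 arrays, and the gap between the rows was wider than the spread within row 1. The SD between the 2 spots of the probe was at most 0.065 log2 on any array for EIF3F and at most 0.029 for EIF3E.

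EIF3K and EIF3L, which form a peripheral pair within eIF3, were also separated by row. EIF3L read 3.20 on empty vector, 3.19 on non-target, 3.06 with PARN and 3.27 with CNOT6 shRNA, and then 3.61, 3.47 and 3.38 with CNOT6L, CNOT7 and NOC shRNA. In the same order EIF3K read 4.23, 4.14, 4.20 and 4.34 and then 4.51, 4.42 and 4.37. The lowest row 2 array exceeded the highest row 1 array by little for EIF3K.

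EIF3H had another course. Its signals were 6.02 on empty vector, 6.14 on non-target, 6.25 with PARN, 6.66 with CNOT6, 6.12 with CNOT6L, 5.98 with CNOT7 and 6.20 with NOC shRNA. The CNOT6 shRNA array stood alone, 0.52 log2 above the higher control, and the row 2 arrays lay around the controls. As this array was also the dimmest of the slide, array brightness may have a part in the EIF3H peak, which was not tested. EIF3C was also highest on the CNOT6 shRNA array, at 6.48 against 5.93 to 6.26 on the others. There it was 0.22 log2 above the higher control, non-target, which was its second highest array. The EIF3C probe was printed on 1 spot and may share sequence with the near-identical EIF3CL, whose own probe was highest with PARN shRNA (1.76). EIF3D, the subunit that can contact the cap, was above both controls with each shRNA. The smaller of its differences was 0.40 log2 with CNOT6, 0.32 with CNOT6L, 0.28 with CNOT7, 0.29 with NOC and 0.021 with PARN shRNA. The core subunits EIF3A and EIF3B and the loosely bound EIF3J had SDs of 0.092, 0.091 and 0.082 over the 7 arrays.

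Among the factors of start codon selection, EIF1 was the most variable of all 47 genes. It was 6.48 on empty vector, 6.81 on non-target, 6.87 with PARN, 7.35 with CNOT6, 6.44 with CNOT6L, 6.22 with CNOT7 and 6.42 with NOC shRNA, with an SD of 0.38. The CNOT6 shRNA array was highest by a wide margin and the row 2 arrays were lowest, so the direction of EIF1 was opposite to that of EIF3E and EIF3F in row 2. The CNOT6 shRNA array was also the dimmest of the slide, with a 75th percentile of 1360. The CNOT7 shRNA array, where EIF1 was lowest, was the brightest, at 3939. The part of array brightness in EIF1, and in the other genes that peaked with CNOT6 shRNA, was not tested. Relative to the controls, EIF1 was higher with CNOT6 shRNA by 0.87 log2 over empty vector but by 0.54 over non-target. Without the non-target array it counted as 1.5-fold higher. It was printed on 1 spot, as was its paralog EIF1B. EIF1B stayed within 0.15 log2 across the arrays, and EIF1AX, which keeps the subunit open together with EIF1, had the lowest SD of all, 0.052.

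The eIF2 and eIF2B genes, 4 and 5 in number, differed from the controls by small amounts. EIF2S2, the β subunit of eIF2, read 1.43 on empty vector, 1.37 on non-target, 1.31 with PARN and 1.59 with CNOT6 shRNA, and 1.79, 1.62 and 1.70 with CNOT6L, CNOT7 and NOC shRNA. EIF2S1, the α subunit that stress kinases phosphorylate, overlapped between the rows, with 1.57 to 1.82 in row 1 and 1.56 to 1.80 in row 2. All 4 of the eIF2 group (EIF2A and EIF2D, tRNA carriers that can act apart from eIF2, are counted here) were above both controls with CNOT6L shRNA, as were 32.7% of all genes. Of the 5 eIF2B genes, the exchange factor for eIF2, 3 were below both controls on each of the 3 row 2 arrays, where 33.5%, 34.4% and 35.2% of all genes were, with medians of -0.29 log2 for CNOT6L, -0.14 for CNOT7 and -0.075 for NOC shRNA. EIF2B5, its catalytic subunit, read 2.01, 2.15, 2.05 and 2.18 in row 1 and 1.72, 1.89 and 2.004 in row 2. EIF2B1 stayed within 0.15 log2 across all arrays.

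In the cap-binding complex the genes had no common course. EIF4E, the cap-binding protein, ranged from 2.10 with PARN shRNA to 2.46 with NOC shRNA, and the control arrays were at 2.18 and 2.36. All 3 EIF4E probes were lowest with PARN shRNA and below both controls there, by 0.17, 0.37 and 0.45 log2 from the control mean. EIF4G1, the main scaffold, was highest on the non-target array, at 3.40, and ranged from 2.93 to 3.23 on the others. EIF4G3, its paralog, was lowest with CNOT6 shRNA (0.31) and ranged from 0.62 to 0.89 on the other arrays.

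EIF4A1, the helicase of eIF4F, was low on 1 array. It read 5.39 on empty vector, 5.39 on non-target, 5.45 with PARN, 5.51 with CNOT6, 4.91 with CNOT6L, 5.45 with CNOT7 and 5.33 with NOC shRNA. The value with CNOT6L shRNA lay 0.48 log2 below the lower control, and 1.5-fold below both with quantile normalization, but came from a probe printed on 1 spot, while its other probes differed from the control mean by 0.075 and 0.10. The probes of EIF4A1 thus disagreed. EIF4A2, the paralog, was highest with CNOT6 shRNA (6.40) and ranged from 5.93 to 6.14 on the other arrays.

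The cap-binding paralogs differed in their course across arrays. EIF4E2, the 4EHP that binds caps without joining eIF4F, was above both controls on all 5 shRNA arrays, by 0.13 log2 against the control mean with PARN, 0.37 with CNOT6, 0.41 with CNOT6L, 0.44 with CNOT7 and 0.27 with NOC shRNA. Its other probe gave 0.096, 0.33, 0.50, 0.62 and 0.54 in the same order, so both probes of EIF4E2 had this direction. EIF4E3 was dim, between -4.71 and -3.93, and highest on the non-target array, and without the empty vector array it counted as 1.5-fold lower with CNOT6 shRNA.

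EIF4EBP2, a 4E-BP that holds eIF4E away from eIF4G, read 3.27 on empty vector, 3.28 on non-target, 3.41 with PARN, 3.06 with CNOT6, 3.69 with CNOT6L, 3.54 with CNOT7 and 3.70 with NOC shRNA. The row 2 arrays lay above row 1, and CNOT6 shRNA was lowest. The probe was printed on 10 spots with an SD between spots of at most 0.084. A second, dimmer EIF4EBP2 probe read 0.60, 0.19 and 0.73 in row 2 and 0.079 to 0.46 in row 1, so the rows overlapped there. EIF4EBP1 read 4.75, 4.89, 4.67 and 4.55 in row 1 and 5.00, 4.98 and 4.87 in row 2. EIF4G2, the DAP5 scaffold that lacks the eIF4E-binding part of EIF4G1, was 5.32 on each of the controls and on the PARN shRNA array and between 5.50 and 5.61 on the other 4 arrays.

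The last group holds factors that act from start codon recognition onward. EIF5B, which joins the ribosomal subunits, ranged from 0.26 with NOC shRNA to 0.62 on the non-target array. EIF5, which triggers GTP hydrolysis by eIF2, was low on the non-target array: it read 2.93 on empty vector, 2.42 on non-target, 2.96 with PARN, 2.88 with CNOT6, 2.61 with CNOT6L, 2.52 with CNOT7 and 2.64 with NOC shRNA. All shRNA arrays thus lay above the non-target array, and all but PARN shRNA lay between the controls. EIF5A, which carries hypusine and helps peptide bond formation, ranged from 1.49 to 1.92 and EIF5A2, its paralog, from -0.63 to -0.10, both highest with CNOT6 shRNA. EIF5AL1, a copy of EIF5A whose dim signal may be shared with it, ran from -4.46 with PARN shRNA to -3.39 with CNOT6 shRNA. Against the non-target array alone it counted as 1.5-fold lower with PARN shRNA. EIF6, which keeps the large subunit free, had an SD of 0.078.

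**Figure D3:**
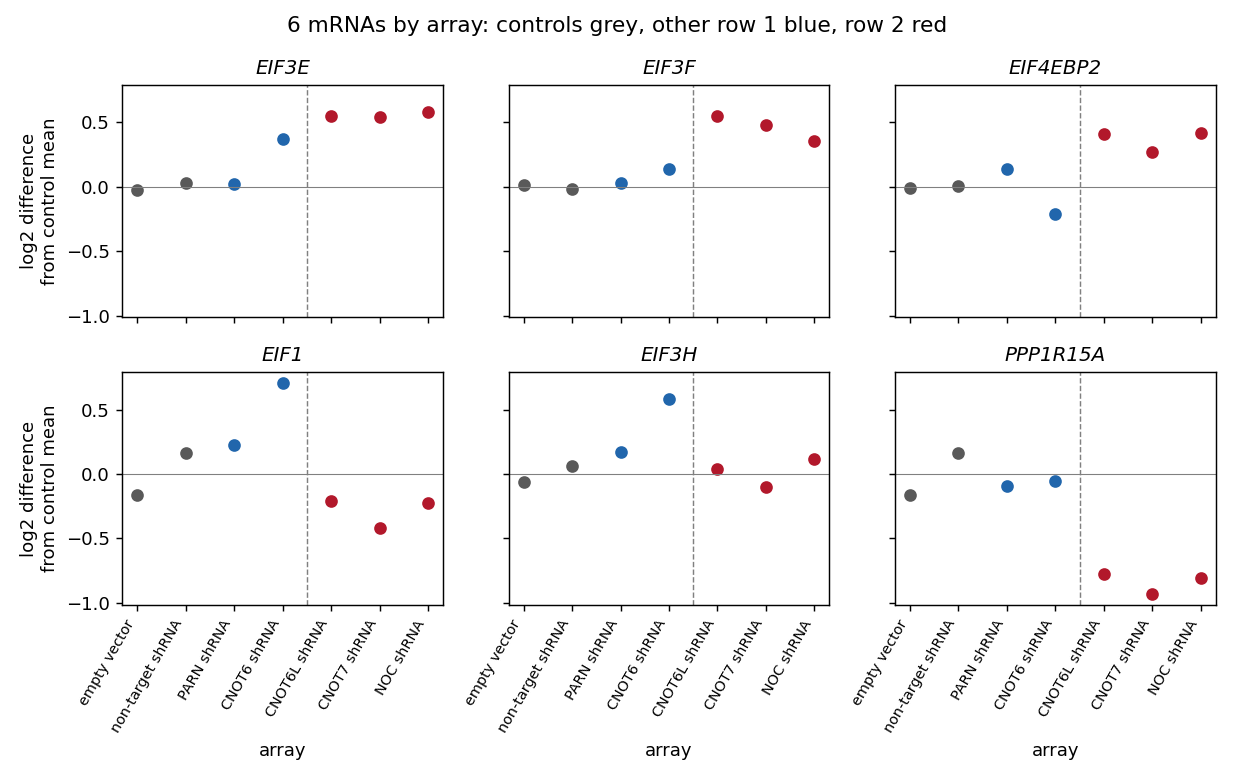
Each panel gives 1 mRNA as log2 difference from the mean of both controls (y axis) on the 7 arrays (x axis), controls in grey, PARN and CNOT6 shRNA in blue and slide row 2 in red. EIF3E, EIF3F and EIF4EBP2 are higher across row 2, and PPP1R15A is lower there. EIF1 and EIF3H peak on the CNOT6 shRNA array, the dimmest of the slide.

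The arrays were then compared across all shRNAs. With 5 shRNA arrays against 2 controls, limma called 0 of 38090 probes (0.0%) at a Benjamini-Hochberg adjusted p of 0.05, with 1413 at an unadjusted p under 0.05, and 0 of the 47 initiation factors. EIF3D (0.29 ± 0.12 SE, higher on 5 of 5 shRNA arrays than the control mean), EIF3E (0.41 ± 0.16) and EIF4E2 (0.33 ± 0.12) had an unadjusted p under 0.05 and adjusted p-values of 1.0 by limma. The p-values measure the spread between different plasmids and not between repeats of a transfection.

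By limma, slide row divided the arrays more than shRNA against control did, although row 1 itself was not uniform. Between pairs of arrays, the median absolute difference over all genes was 0.13 to 0.28 log2 within row 1. It was 0.13 to 0.14 within row 2 and 0.24 to 0.30 across rows. In limma the row 2 arrays were higher than row 1 for 3 initiation factors, which were EIF3E by 0.46 ± 0.10 log2 (SE, adjusted p = 0.036), EIF3F by 0.42 ± 0.08 (adjusted p = 0.022) and EIF4EBP2 by 0.39 ± 0.10 (adjusted p = 0.049). None was lower. Over all probes 2.47% were called higher and 4.17% lower, and 3 of 47 is 6.38%. By the plainer rule that all row 2 arrays lie on 1 side of all row 1 arrays, 8 genes were above (EIF2A, EIF2S2, EIF3E, EIF3F, EIF3K, EIF3L, EIF4EBP2 and EIF4G3) and 3 below (EIF1, EIF2B4 and EIF2B5), where 13.7% of all genes were above and 14.9% below. The 23.4% of initiation factors divided in either direction is below the sum of these shares. Among bright genes with a promoter window, 21.4% of those with a pyrimidine start and 22.1% of those without were above. Below were 11.8% and 13.3%, so the initiation factors had no excess above beside genes of like brightness. Lineage markers also differed between the rows by limma, with SOX2 at -0.50 log2 (adjusted p = 0.039), KRT6A at 0.997 (0.019) and CDH1 at 0.40 (0.0496), calls that held in 9, 13 and 6 of 16 alternatives, and KRT18 and KRT19 were at -0.21 and -0.29 without a call (0.20 and 0.19). The part of these markers in the row difference was not tested.

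The row calls depended on single arrays, while the differences themselves stayed about as large. Limma called 0 initiation factors when the empty vector, PARN, CNOT6L, CNOT7 or NOC shRNA array was left out, 4 without CNOT6 shRNA and 5 without the non-target array. In the fits with 0 calls for a left-out array, the row difference was 0.42 to 0.47 log2 for EIF3E, 0.38 to 0.47 for EIF3F and 0.36 to 0.44 for EIF4EBP2. With the arm (control or shRNA) as a term in the fit it called 0, and EIF3E, EIF3F and EIF4EBP2 then differed by 0.36, 0.38 and 0.40 log2 between rows. EIF3E and EIF3F kept an adjusted p under 0.05 in 9 of 16 alternatives each and EIF4EBP2 in 4 of 16, and their direction was the same in all 16.

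**Figure D4:**
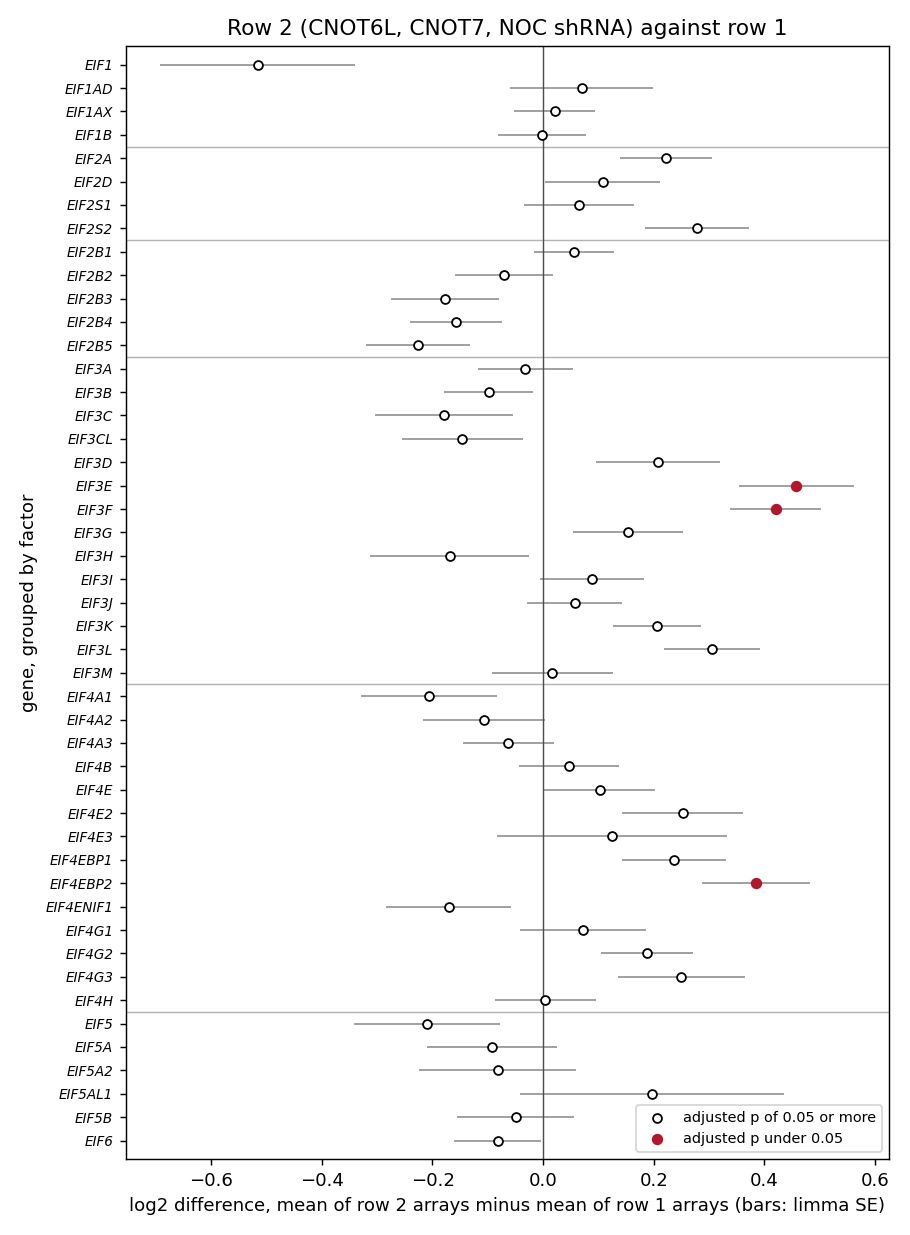
For each of 47 genes (y axis, grouped by factor) the point is the mean of 3 row 2 arrays minus the mean of 4 row 1 arrays on the log2 scale (x axis) and the bar its limma standard error. Filled points are EIF3E, EIF3F and EIF4EBP2, with adjusted p-values of 0.036, 0.022 and 0.049, and EIF1 is lowest at -0.52.

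The arrays of row 2, which share the slide row, were then compared with each other. Against both other arrays of the row, 0 of 47 genes were 1.5-fold apart with CNOT6L, CNOT7 or NOC shRNA, where 2.53%, 1.13% and 1.41% of all genes were, so a count of 0 lay near the background. EIF3E differed from the mean of its row mates by -0.0076 log2 with CNOT6L, -0.027 with CNOT7 and 0.035 with NOC shRNA, and EIF3F by 0.13, 0.031 and -0.16. The widest gaps to the mean of the row mates were those of EIF4A1, at -0.48 with CNOT6L and 0.33 with CNOT7 shRNA, from the 1-spot probe that its other probes did not follow, and of EIF1AD, an eIF1A-like protein, at 0.43 with NOC shRNA, also from a probe printed on 1 spot.

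Genes with several probes showed how far the row difference depends on the probe. For EIF4B, a helper of the eIF4A helicase, the brightest probe gave 0.047 log2 between rows, while its other probes gave 0.40 and 0.49 with adjusted p-values of 0.031 and 0.044 by limma. EIF4G2 gave 0.19 (adjusted p = 0.20) and 0.34 (0.034), and EIF4E2 gave 0.25 (0.19) and 0.45 (0.032). EIF4ENIF1, which shuttles eIF4E into the nucleus, gave -0.17 (0.38) and -0.50 (0.034). For genes above in row 2 by the brightest probe, the other probe gave less and its rows overlapped. By limma it gave -0.089 for EIF2A (adjusted p = 0.85), 0.22 for EIF2S2 (0.39), 0.21 for EIF4EBP2 (0.42) and 0.18 for EIF4G3 (0.42). With the mean over all probes of a gene, limma called 6 genes higher in row 2, namely EIF3E, EIF3F, EIF3L, EIF4B, EIF4E2 and EIF4G2.

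The genes with and without a pyrimidine start were then set side by side, a split chosen after the values had been seen and therefore not tested. Of the 13 genes with the run, 4 lay above in row 2 (EIF2A, EIF3F, EIF3K and EIF4EBP2) and 0 below, with a median row difference of 0.19 log2. Of the 26 without it that could be read, 1 lay above (EIF4G3) and 3 below (EIF1, EIF2B4 and EIF2B5), with a median of -0.067. Over all named genes with a window no such split appeared: 13.9% of 2397 genes with the run were above and 14.5% below, and of 10588 without it 14.4% and 14.5%. Among bright genes, the shares above were 21.4% with and 22.1% without the run. EIF2S2, EIF3E and EIF3L, also above in row 2, had no window here.

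Other genes of the pathway were counted by the same rules. Of 23 initiation cofactors and regulatory kinases or phosphatases, limma called 3 higher and 1 lower in row 2, and of 11 elongation and release factors 2 higher and 0 lower, beside the 2.47% higher and 4.17% lower of all probes. PPP1R15A (GADD34), the stress-induced subunit that directs dephosphorylation of eIF2α, read 0.89 on empty vector, 1.22 on non-target, 0.96 with PARN, 0.999 with CNOT6, 0.28 with CNOT6L, 0.12 with CNOT7 and 0.24 with NOC shRNA. It was 1.5-fold lower than both controls on all 3 row 2 arrays, and by limma the rows differed by -0.80 ± 0.10 log2 (adjusted p = 0.0059), a call that held in 16 of 16 alternatives, from -0.85 to -0.74. EIF2AK3 (PERK), the eIF2α kinase of endoplasmic reticulum stress, was higher in row 2 by 0.55 ± 0.10 (adjusted p = 0.020). DHX29, a helicase that aids scanning on structured leaders, was higher by 0.44 ± 0.08 (adjusted p = 0.019), and PAIP2, which displaces poly(A)-binding protein, by 0.38 ± 0.10 (adjusted p = 0.049). The release factors ETF1 and GSPT1 were higher by 0.46 ± 0.10 and 0.39 ± 0.09 (adjusted p = 0.028 and 0.032). These calls held in 11 of 16 alternatives for EIF2AK3, 10 for DHX29, 9 for ETF1 and GSPT1 and 6 for PAIP2, all with the same direction. Of the 34 genes of both lists, PPP1R15A and EEF1A2, a tissue-restricted elongation factor, were the 2 that differed 1.5-fold from both controls on any shRNA array, EEF1A2 with NOC shRNA.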

How the data were processed

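RNA of 7 NCI-H520 cultures was measured on 1-colour arrays, and groups were taken from the sample titles. The deposited scanner files, made with Agilent Feature Extraction 10.7.3.1 per the labels, hold the intensity of 62976 spots as median, background and processed signals. The deposited series table holds the authors' log2 values, centred per probe, with column medians from -0.020 to 0.090. Its differences between arrays matched the scanner files within 0.02 log2 apart from 1 shift per array, so its scaling stays unknown and it served as an alternative.

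Processed signals were put on the log2 scale and each array's 75th percentile over gene spots was subtracted. Control and outlier spots were left out and spots of a probe were averaged, leaving 42405 gene probes. A probe was above background on an array where at least 50% of its spots were. Symbols came from RefSeq (GRCh38.p14) for 24826 probes. A gene was 1.5-fold or 2-fold changed when it differed so, in 1 direction, from both controls; genes above background on at least 2 arrays were tested (17834). Limma 3.58.1 (R 4.3.3; lmFit, eBayes with trend, two-sided, Benjamini-Hochberg) used 38090 probes. Scripts were tested on simulated data.

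The genes, lists and rules were chosen with earlier results of these data known. Genes named were those with the 10 highest and 5 lowest SDs, eIF2, eIF4F and 4E-BP members, named paralogs and genes near the fold threshold or divided by row. The 34 pathway genes and the markers were listed by hand. Normexp (offset 50) used the median signal, since the scanner files used here have no mean signal. In its limma fit, the series table was given back each probe's median level, after a fit without it had made 0 calls. The percentile was taken over gene spots after values scaled over probes had been seen. The 1.5-fold count and the row calls of pathway genes and markers under other settings, the 75th percentile over probes, the bright-gene background and the promoter split were added after seeing the data. The number of arrays, 1 a group, limits the precision.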

Additional observations from a re-analysis of the deposited data

How the results depend on the processing

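The count of initiation factors changed 2-fold was 0 for each shRNA and between the controls, and stayed 0 in 66 of 69 alternatives, as it did between row 2 arrays in 27 of 27. Without scaling it was 5 for CNOT6 shRNA, the dimmest array, and 1 between the controls, and with quantile normalization 1 between the controls. Median differences from the control mean, given for PARN, then CNOT6, CNOT6L, CNOT7 and last NOC shRNA, were -0.0057, 0.091, 0.059, -0.014 and 0.050 with normexp, -0.0051, 0.091, 0.076, 0.071 and 0.11 from the series table, -0.32, -0.89, 0.43, 0.56 and 0.29 without scaling, and -0.0091, 0.087, 0.076, 0.069 and 0.11 with the 75th percentile over probes. With quantile normalization they were 0.024, 0.0081, 0.00084 and 0.032 for CNOT6, CNOT6L, CNOT7 and NOC shRNA. Leaving out either control, they ranged from -0.012 to -0.0011 for PARN, 0.12 to 0.18 for CNOT6, 0.070 to 0.074 for CNOT6L, 0.019 to 0.032 for CNOT7 and 0.112 to 0.114 for NOC shRNA. At 1.5-fold, an alternative chosen after seeing the data gave 23 genes lower with CNOT6 shRNA without scaling, and 0 to 3 in every other case.

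Limma called 3 initiation factors between slide rows, 6 with the mean over probes, 0 without the trend, 0 with the arm as a term, and from 0 to 5 when 1 array was left out. Without the trend the differences of EIF3E, EIF3F and EIF4EBP2 were as before (0.46, 0.42 and 0.39). The series table gave 4 calls with each probe's median level added back for the trend, a step chosen after the table as deposited had given 0 of 47 (9 at an unadjusted p under 0.05) and 0 over all probes. It called 0 between shRNA and control arrays in each alternative run, slide row as a term included, with 0 to 7 genes at an unadjusted p under 0.05. With 1 shRNA array against both controls, assumed to vary like them, it also called 0 genes, but with 1 residual degree of freedom before moderation this says nothing about stability. No paired analysis was possible because each group had 1 array and every label carries the same replicate number.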
